A study of Mus musculus with 2 samples.

Results

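Macrophages of the mouse small intestine with a high share of Pf4 transcripts, and without transcripts of 5 perivascular macrophage genes, were described here. The cells were chosen on measured values. A cell entered when it had at least 200 detected genes, at most 10% of its unique molecular identifiers (UMIs, tags that each mark a captured transcript) from mitochondrial genes, and at least 0.5% of its UMIs from C1qa, C1qb and C1qc, which encode the chains of complement C1q. It also had to hold 0 UMIs of Cd163 and 0 UMIs of Cbr2, F13a1, Folr2 and Lyve1, and a cell with any UMI of these 5 genes is called a perivascular-gate cell below. In each library these cells were ranked by Pf4 UMIs as a share of all UMIs of the cell, and the top 15% are called Pf4-high. There were 328 Pf4-high cells of 2185 ranked cells in the wild-type library and 239 of 1591 in the knockout library, 567 of the 5828 deposited cells in all. They were set against the bottom 50% of the same ranking, which held 1092 wild-type and 796 knockout cells, and the middle 35% held 765 and 556 cells.

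The series compared small intestinal macrophages of WT C57BL/6J male mice obtained from Janvier with those of CCR2-/- mice, a JAX strain bred in-house, so genotype and source cannot be told apart; age, and the sex of the CCR2-/- mice, were not given in the sources used here. Intestines of 3 or 4 mice were pooled per genotype after removal of mucus and epithelium and enzymatic digestion, and live CD45+ CD11b+ MHCII+ CD64+ cells were sorted after exclusion of cells bearing CD3, TCRb, B220, SiglecF, Ly6C or Ly6G. Transcript ends were counted by droplet sequencing with the 10x Genomics 3′ version 2 chemistry. There was 1 library per genotype, and the wild-type cells were run on 2 lanes, which are technical splits of 1 sample. No comparison below therefore has a replicate or a test, and every interval covers counting error only.

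Platelet factor 4, the product of Pf4, is a chemokine of the CXC family that is stored in platelets and binds heparan sulfate chains of proteoglycans such as the syndecans. Pf4 is also transcribed by many tissue macrophages, among them those that lie along vessels and express the mannose receptor, stabilin, CD163 and LYVE-1. In the intestine, most macrophages are renewed from blood monocytes that depend on CCR2, the receptor for the chemokines CCL2, CCL7 and CCL12, and a smaller long-lived fraction is kept without them. The Ly6C exclusion of the sort removes early monocytes, so recent arrivals are seen only after they have lost Ly6C.

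The 2 deposited libraries held 3054 wild-type and 2774 knockout cells, of which 3016 and 2612 passed the filters and 2639 and 2208 passed the C1q gate. The gate against perivascular genes kept 82.8% of C1q-positive wild-type and 72.1% of C1q-positive knockout cells. The share of C1q-positive cells inside the perivascular gate went with depth in the knockout, from 18.4% of cells under 1000 UMIs to 50.7% of cells with at least 6000 UMIs. How many ranked cells are perivascular cells whose gate transcripts were missed was not tested. The wild-type Pf4-high cells had a median of 4967 UMIs against 7000.5 in the bottom 50%, and the knockout Pf4-high cells 2226 against 2469.5. Ribosomal genes took 18.7% of the UMIs of the wild-type Pf4-high cells and 21.2% of those of the bottom 50%, against 14.2% and 12.1% in the knockout. Mitochondrial genes took 3.59% and 2.67% in the wild type, and 4.22% and 4.25% in the knockout. The wild-type lanes shared 5 barcode sequences and the libraries 6, and 0 barcode sequences were Pf4-high in both libraries. Cells scored as likely doublets made up 1.52% of the wild-type (95% Clopper-Pearson interval 0.497% to 3.52%) and 3.77% of the knockout Pf4-high cells (1.74% to 7.03%), against 0.916% and 1.38% of the bottom 50%.

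Pf4 itself set the choice of cells, so its levels are a description. Summed over cells and scaled to UMIs per 1000000 UMIs of the group (CPM), Pf4 stood at 3147 CPM in the wild-type Pf4-high cells (95% Poisson interval 3066 to 3231), at 1158 CPM in the middle 35% and at 267 CPM in the bottom 50%. The knockout gave 2339 CPM (2221 to 2462), 734 CPM and 107 CPM in the same order. The order of the bands was fixed by the ranking, whereas the level of each band could differ between libraries, and all 3 bands were lower in the knockout. The ranked cells were 82.8% of C1q-positive wild-type and 72.1% of C1q-positive knockout cells, and the part of the gate in this difference was not tested. The wild-type lanes gave 3250 and 2932 CPM in the Pf4-high cells, so the knockout lay below both. Cells inside the perivascular gate had 2397 CPM in the wild type and 1926 CPM in the knockout, between the middle band and the Pf4-high cells of their library. Lymphoid cells, defined by 3 or more UMIs of T or B cell markers below the C1q gate, which should not make Pf4, had 205 CPM (157 to 263, 35 cells) in the wild type and 292 CPM in the knockout (36 cells). The bottom 50% of the knockout thus lay below the lymphoid background, and that of the wild type just above the interval of its own.

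The threshold runs through a continuous range. The last wild-type Pf4-high cell had 7 Pf4 UMIs of 3651 and the first cell outside had 4 of 2087, which is 1917 per 1000000 for both. In the knockout the last had 3 UMIs of 2329 (1288 per 1000000) and the first outside had 1 of 778 (1285 per 1000000). The cut was thus lower in the knockout. Pf4-high cells held 3 to 88 Pf4 UMIs in the wild type (median 14) and 1 to 36 in the knockout (median 5). Within 10% of the cut lay 51 of the 328 wild-type Pf4-high cells and 60 cells just below it, and 34 of 239 and 45 cells in the knockout. No Pf4 UMI was seen in 272 of the 2185 ranked wild-type cells (12.4%) and in 591 of the 1591 ranked knockout cells (37.1%). When every cell was thinned to 1000 UMIs, Pf4 was detected in 94.8% of wild-type and 89.3% of knockout Pf4-high cells (100% of both before thinning), in 24.3% and 8.90% of the bottom 50% (75.1% and 25.8% before), and in 7 of 35 and 7 of 36 lymphoid cells (54.3% and 33.3% before). In the wild type Pf4-high status also went with depth, since 25.2% of ranked wild-type cells with 1000 to 2000 UMIs were Pf4-high but 10.2% of those with at least 6000. In the knockout the shares over depth classes lay between 12.1% and 18.2%, in no order of depth.

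**Figure D1:**
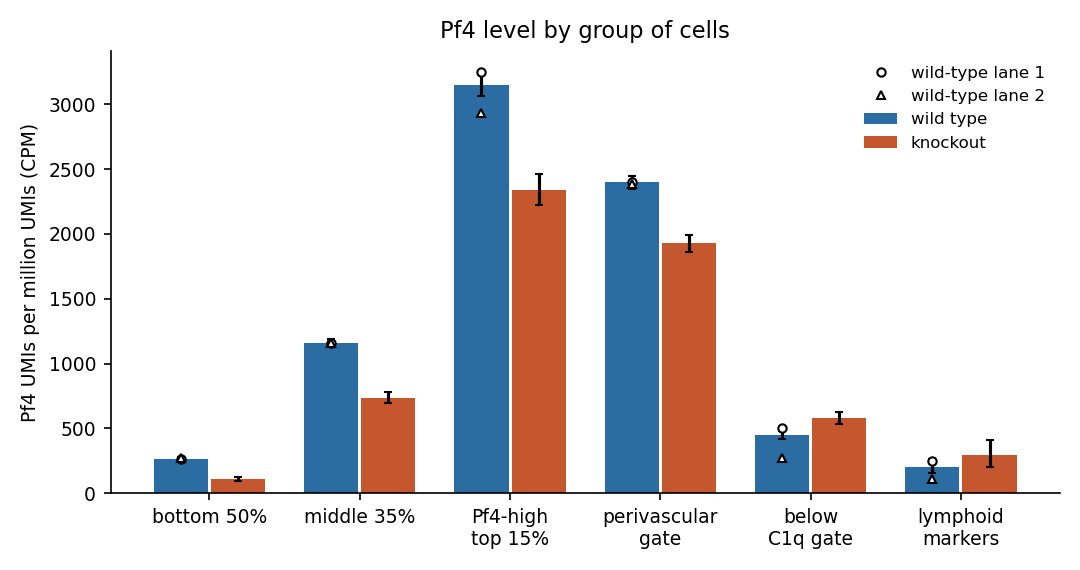
Pf4 level (vertical axis, UMIs per 1000000 UMIs) in each band of the Pf4 ranking, in perivascular-gate cells, in cells below the C1q gate and in lymphoid cells of the wild-type (blue) and knockout (orange) libraries. Bars are sums over cells with 95% Poisson intervals and open symbols are the wild-type lanes; the Pf4-high cells stand at 3147 and 2339 CPM, above the perivascular gate at 2397 and 1926 CPM.

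The genes given as markers of these cells beside Pf4 were only in part higher in them. Art2b, which encodes an ADP-ribosyltransferase of the cell surface, stood at 119 CPM in the wild-type Pf4-high cells against 82.3 CPM in the bottom 50%, and at 47.9 against 43.6 CPM in the knockout. Gsg1 was at 54.1 against 53.4 CPM and at 17.6 against 16.6 CPM. Pltp, the phospholipid transfer protein, was at 164 against 128 CPM and at 83.0 against 41.7 CPM, and C1qb was at 4606 against 4676 CPM and at 1828 against 1825 CPM. Of these 4 genes, Pltp alone passed 1.5-fold, in the knockout alone, and its log2 ratio there was -0.11 when all cells were thinned to 1000 UMIs. The cells are therefore named by Pf4 alone here. General macrophage genes were present throughout: Csf1r, the receptor for macrophage colony-stimulating factor, stood at 934 CPM in wild-type and 1398 CPM in knockout Pf4-high cells, and Cx3cr1, the fractalkine receptor, at 831 and 1225 CPM. Of the 10 general macrophage genes, 1 in the wild type (Cx3cr1) and 2 in the knockout (Cd14 and Itgam) were at least 1.5-fold higher in Pf4-high cells.

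Because Pf4 is the classical platelet transcript, 13 platelet genes were read in the same cells. Their summed level was 124 CPM in the wild-type Pf4-high cells, 86.6 CPM in the bottom 50%, 86.2 CPM in the knockout Pf4-high cells and 162 CPM in its bottom 50%. Most of this was Clec1b, the gene of the podoplanin receptor CLEC-2, at 118, 83.2, 71.8 and 158 CPM in the same order. The defining platelet genes Gp1ba, Gp1bb, Gp5, Gp6, Gp9, Treml1, Tubb1, Nrgn and Alox12 were at 0 UMIs in the Pf4-high cells of both libraries. Ppbp, which lies directly upstream of Pf4 and encodes another platelet chemokine, had 11 UMIs (6.14 CPM) in wild-type and 9 UMIs (14.4 CPM) in knockout Pf4-high cells, beside 5639 and 1466 UMIs of Pf4. In the bottom 50% Ppbp had 23 UMIs (2.81 CPM) and 7 UMIs (3.32 CPM). Ppbp was thus higher in Pf4-high cells of both libraries, on few UMIs. Markers of other cells were also summed in wild-type and knockout Pf4-high cells, and not all were low. The sums were 3.91 and 1.60 CPM for 6 T cell genes and 41.9 and 43.1 CPM for 6 B cell genes. They were 58.0 and 59.0 CPM for 12 epithelial genes and 51.4 and 94.1 CPM for 8 endothelial genes. Plasma cell genes stood at 80.4 and 224.9 CPM, dendritic cell genes at 110.5 and 84.6 CPM and Paneth cell genes at 66.4 and 98.9 CPM. Haemoglobin genes stood at 11.2 and 451.5 CPM, the highest of these sums in the knockout. Beside the B cell genes (34.9 and 29.4 CPM in the bottom 50%), the summed fibroblast genes (25.7 and 60.6 CPM against 14.2 and 28.9 CPM) and smooth muscle and glial genes (39.6 and 49.5 against 13.9 and 18.5 CPM) were higher in Pf4-high cells of both libraries. The fibroblast sum was higher in wild-type lane 2 alone (51.7 against 12.6 CPM) and not in lane 1 (13.2 against 14.9 CPM). Of the 8 fibroblast genes 2 and 1 were at 0, and of the 7 smooth muscle and glial genes 1 and 1, in wild-type and knockout Pf4-high cells. Their part in the results below was not tested.

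Across the transcriptome, genes with a mean of at least 50 CPM over the Pf4-high and bottom pools of both libraries were compared, 2652 in all, as log2 ratios of CPM with a pseudocount of 1 CPM. A gene was counted as higher or lower when its ratio passed 1.5-fold. In the wild type 116 genes (4.37%) were higher and 91 (3.43%) lower in Pf4-high cells, and in the knockout 182 (6.86%) were higher and 201 (7.58%) lower. In both libraries 48 genes (1.81%), Pf4 included, were higher and 38 (1.43%) were lower, and the median log2 ratio over all compared genes was 0.04 in each library. The 38 include Ccr2, whose knockout ratio rests on 3 and 22 UMIs. All 48 genes were also above the bottom 50% in each wild-type lane. The 15 leading genes, ranked by the smallest of the knockout and lane ratios, were Ccl7, Fcrls, Wwp1, Vcam1, Ccl2, Igfbp4, Ccl12, Dab2, Ccnd1, Cp, Abca1, Igf1, Cd36, Gas6 and Lifr. A gene can pass the expression filter through its Pf4-high level alone, so the counts of higher genes and this ranking are a description. Fcrls, for example, stood at 20.5 and 13.7 CPM in the bottom 50% of the wild type and the knockout. Apart from wild-type Ccl7, perivascular-gate cells held each of the 15 above the Pf4-high level of their library. One example was Wwp1, at 186 and 327 CPM against 122 and 206 CPM. With ranked cells limited to 2000 to 4000 UMIs, 46 of the 48 genes stayed above 0 in both libraries and 35 stayed past 1.5-fold in both. Of the 38 lower genes, 36 stayed below 0 in both libraries in these cells and 29 stayed past 1.5-fold in both.

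**Figure D2:**
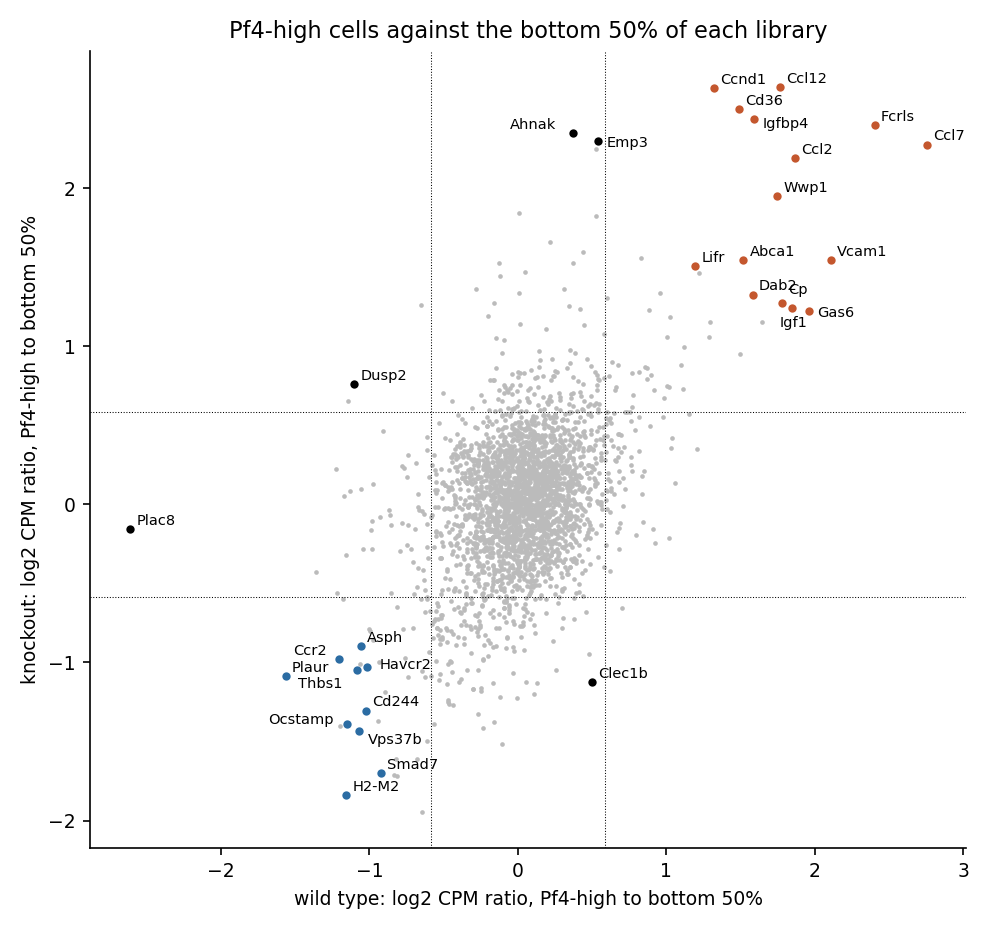
Each point is a gene, placed by its log2 CPM ratio of Pf4-high cells to the bottom 50% in the wild-type library (horizontal) and the knockout library (vertical). Dotted lines mark 1.5-fold; orange points are the 15 leading genes that were higher in both libraries, blue points the 10 leading genes that were lower, and black points examples whose ratios differed between the libraries, and Pf4 is left out. Among the blue points, Ccr2 rests on 3 and 22 UMIs in the knockout.

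The chemokine ligands Ccl2, Ccl7, Ccl12 and Ccl8 were the list with the highest median ratio. CCL2, CCL7 and CCL12 attract monocytes through CCR2, and CCL8 is encoded beside them. Ccl7 stood at 476 CPM in wild-type Pf4-high cells (437 and 557 CPM in lanes 1 and 2) against 69.7 CPM in the bottom 50%, and at 1875 against 387 CPM in the knockout. These are log2 ratios of 2.75 (95% counting interval 2.62 to 2.93) and 2.27 (2.15 to 2.41), and both lanes of the wild-type Pf4-high cells lay above every Pf4 band below them. Ccl2 stood at 299 against 81.5 CPM in the wild type and at 1018 against 223 CPM in the knockout, log2 ratios of 1.86 (1.71 to 2.04) and 2.19 (2.02 to 2.37). Ccl12 stood at 524 against 153 CPM and at 911 against 146 CPM, log2 ratios of 1.76 (1.65 to 1.89) and 2.64 (2.44 to 2.85), so its bottom levels were alike in the libraries while the Pf4-high levels were not. Ccl8 stood at 559 against 178 CPM and at 274 against 123 CPM, log2 ratios of 1.65 (1.53 to 1.77) and 1.16 (0.87 to 1.44). Perivascular-gate cells, outside the ranking, held Ccl7 at 391 CPM in the wild type and 2506 CPM in the knockout, Ccl2 at 314 and 1483 CPM, Ccl12 at 747 and 1224 CPM and Ccl8 at 711 and 599 CPM. Apart from wild-type Ccl7, each of these levels was above that of the Pf4-high cells, so high levels of these chemokines were not particular to Pf4-high cells. The middle 35% lay between the 2 bands for all 4 genes in both libraries, for example at 176 and 637 CPM for Ccl7. The median log2 ratio of the 4 genes was 1.81 in the wild type and 2.23 in the knockout. Over the alternatives of the closing section the lowest log2 ratio of any of the 4 was 1.36 in the wild type (Ccl12, lane 2 alone) and 0.51 in the knockout (Ccl8, cells with at least 4000 UMIs).

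The 4 chemokine genes stand in 1 cluster on the plus strand of chromosome 11 (GRCm38, GENCODE M21): Ccl2 at chr11:82035571-82037453, Ccl7 at chr11:82045712-82047525, Ccl12 at chr11:82101845-82103400 and Ccl8 at chr11:82115185-82116799, all within 81.2 kb. Ccl11, the eotaxin gene at chr11:82057823-82062955 between Ccl7 and Ccl12, was looked up for its position after the values of its neighbours were seen. It had 13 UMIs (7.26 CPM) in wild-type and 2 UMIs (3.19 CPM) in knockout Pf4-high cells. The bottom band of the ranking had 26 UMIs (3.175 CPM) in the wild type and 6 UMIs (2.84 CPM) in the knockout. Ccl11 was thus far below the 4 genes in level. It was higher in wild-type Pf4-high cells than in the bottom band, as the 4 genes were, but on too few UMIs to read its ratio. Pf4 lies at chr5:90772435-90773383 among CXC chemokine genes. Within 100 kb of it, Cxcl5 and Cxcl15 had 0 UMIs in the Pf4-high cells of both libraries, and Cxcl3 had 0 and 5 UMIs. The 250 bases upstream of the starts of Pf4, Ccl12, Ccl8 and Abca1, a leading gene from outside the clusters, are printed to show the start-proximal sequence of genes that were higher together. They are from RefSeq on GRCm38.p6, 5′ to 3′ on the strand of the gene, at chr5:90772185-90772434 (plus), chr11:82101595-82101844 (plus), chr11:82114935-82115184 (plus) and chr4:53159896-53160145 (minus). Capitals mark letters that match, on either strand, AGGAAG (the core bound by ETS factors such as PU.1), TGCTGA (a Maf half-site) or TTGCNNAA (a form bound by C/EBP factors), and no match overlaps another. The letters bound by GATA factors were searched as AGATAA, which is in none of the 4 windows.
Pf4: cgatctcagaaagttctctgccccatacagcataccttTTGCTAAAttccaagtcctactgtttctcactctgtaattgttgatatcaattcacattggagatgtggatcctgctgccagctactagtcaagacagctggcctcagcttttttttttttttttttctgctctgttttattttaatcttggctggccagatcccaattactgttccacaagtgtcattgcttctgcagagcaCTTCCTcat
Ccl12: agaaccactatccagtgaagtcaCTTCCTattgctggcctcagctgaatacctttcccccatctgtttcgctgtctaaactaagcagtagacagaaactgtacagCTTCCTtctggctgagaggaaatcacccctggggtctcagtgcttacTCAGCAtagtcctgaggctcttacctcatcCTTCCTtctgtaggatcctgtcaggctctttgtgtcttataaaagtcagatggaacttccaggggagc
Ccl8: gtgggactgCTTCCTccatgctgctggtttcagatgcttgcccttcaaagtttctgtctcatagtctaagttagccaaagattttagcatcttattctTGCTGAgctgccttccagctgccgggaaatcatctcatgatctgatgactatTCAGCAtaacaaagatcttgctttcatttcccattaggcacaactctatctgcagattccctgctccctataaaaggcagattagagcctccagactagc
Abca1: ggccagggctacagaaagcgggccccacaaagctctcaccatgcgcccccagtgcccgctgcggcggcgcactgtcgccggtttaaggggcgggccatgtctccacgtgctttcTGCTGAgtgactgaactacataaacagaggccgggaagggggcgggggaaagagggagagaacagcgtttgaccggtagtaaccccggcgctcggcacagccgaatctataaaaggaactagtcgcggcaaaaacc
AGGAAG was found once upstream of Pf4, 3 times upstream of Ccl12 and once upstream of Ccl8, and 29.2% of 27025 RefSeq promoters of the same length hold it. TGCTGA was found once upstream of Ccl12 and of Abca1 and in 2 places upstream of Ccl8, against 15.8% of promoters, and TTGCNNAA once upstream of Pf4, against 9.55%. The GATA letters are in 10.3% of promoters. A match describes letters and is not a site of binding.

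Single cells were read after thinning to 1000 UMIs, which left out 15 knockout Pf4-high cells and 0 wild-type cells. Any of Ccl2, Ccl7 and Ccl12 was detected in 160 of 328 wild-type Pf4-high cells (48.8%, 95% Clopper-Pearson interval 43.3% to 54.3%) and in 19.6% of the bottom 50%. In the knockout the shares were 71.9% (65.5% to 77.7%) and 37.1%. At least 2 of the 3 were detected in 17.1% against 2.56% of wild-type cells and in 42.4% against 9.18% of knockout cells. None of the 3 was detected in 51.2% of wild-type and 28.1% of knockout Pf4-high cells after thinning. Before thinning, none was detected in 18.6% of the 328 wild-type and 16.7% of the 239 knockout Pf4-high cells. After thinning, Ccl7 alone was detected in 19.8% of wild-type Pf4-high cells against 5.68% of the bottom 50% and 5.71% of lymphoid cells, and in 51.3% against 23.8% and 11.1% in the knockout. The same shares before thinning were 49.4%, 20.1% and 20% in the wild type and 65.7%, 45.9% and 44.4% in the knockout. For Ccl7 after thinning, the wild-type bottom 50% lay within the wide interval of the lymphoid background (2 of 35 cells, 0.7% to 19.2%). The knockout bottom 50% did so too (4 of 36 cells, 3.11% to 26.1%). The median lymphoid depth was 7891 UMIs in the wild type and 2279.5 in the knockout. The summed Ccl2, Ccl7 and Ccl12 UMIs per 10000 UMIs had a median of 5.06 and a 95th percentile of 65.8 over wild-type Pf4-high cells, and of 18.6 and 153 over knockout ones.

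**Figure D3:**
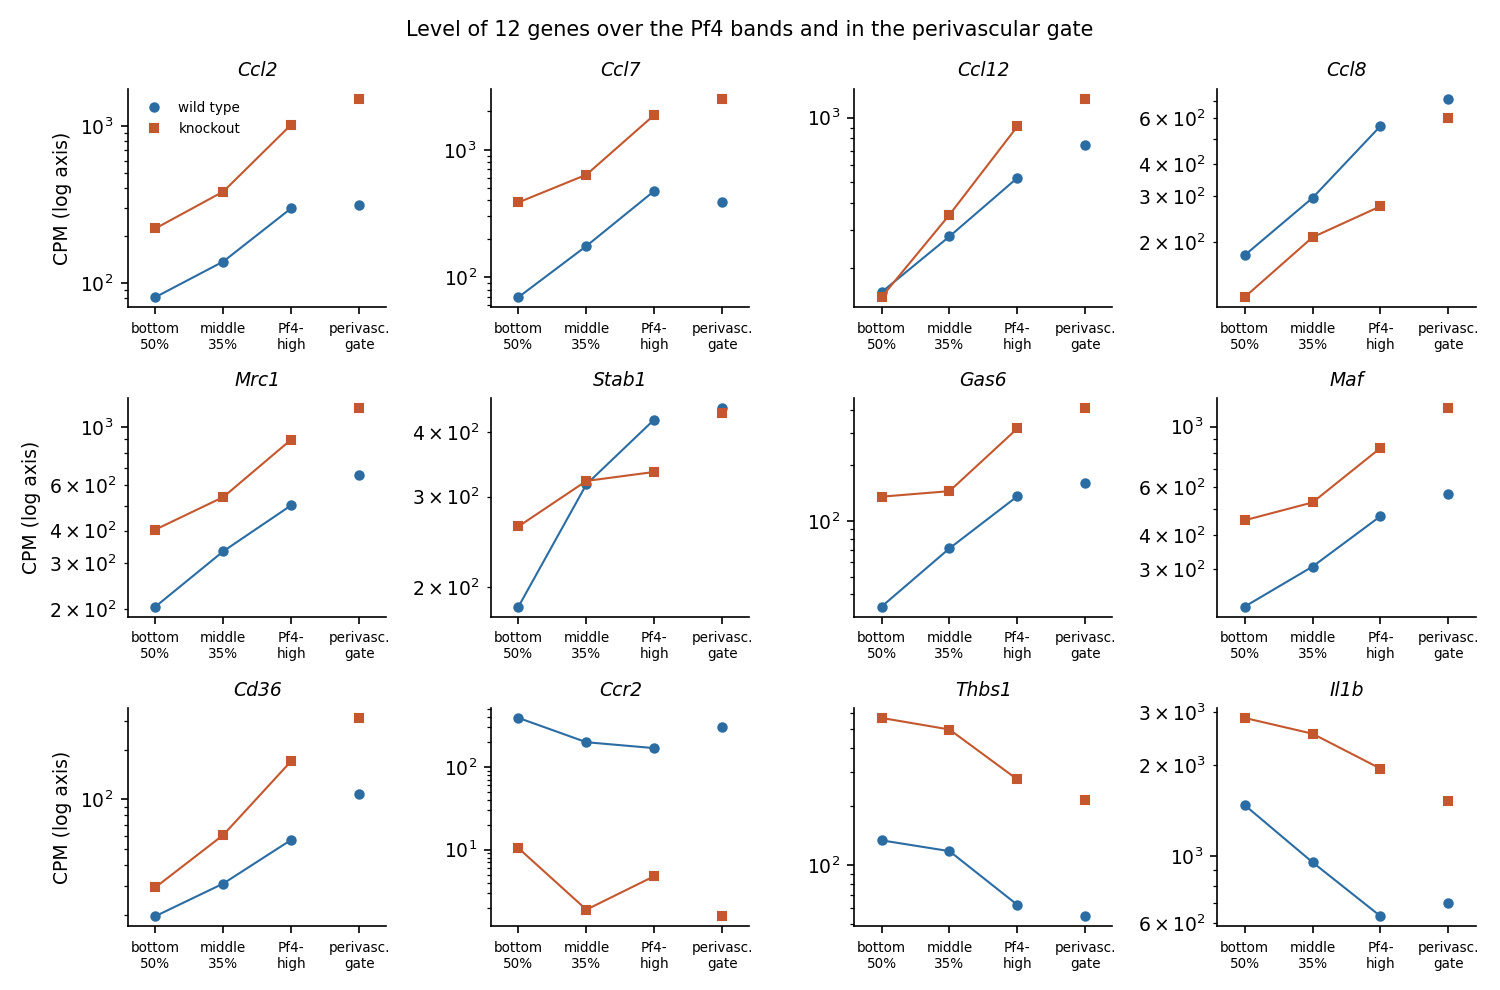
Level (vertical axis, CPM, logarithmic) of 12 genes in the bottom 50%, middle 35% and Pf4-high cells and in perivascular-gate cells of the wild-type (circles) and knockout (squares) libraries. Lines join the bands of the Pf4 ranking; the chemokine and scavenger genes are higher from band to band while Thbs1 and Il1b are lower, and Ccr2 in the knockout rests on 22 UMIs or fewer per band.

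Genes of perivascular macrophages that the gate did not use were also higher. Of 21 such genes, 20 were in the files and 12 passed the expression filter, which a gene can pass through its Pf4-high level alone, so the counts are a description. Of the 12, 10 were higher in the wild type, 7 in the knockout and 6 in both (Mrc1, Gas6, Igf1, Fcrls, Maf and Ccl8), and 0 were lower in either. The median log2 ratio was 1.15 and 0.85, beside 0.04 over all genes. Mrc1, the mannose receptor, stood at 501 CPM in wild-type Pf4-high cells, 333 CPM in the middle 35%, 204 CPM in the bottom 50% and 659 CPM in perivascular-gate cells, and at 898, 539, 404 and 1184 CPM in the knockout. Pf4-high cells thus lay between the remaining ranked cells and the perivascular gate in both libraries. Gas6, the bridging ligand between phosphatidylserine on dying cells and the TAM receptors, stood at 136 against 34.3 CPM in the wild type and at 318 against 136 CPM in the knockout. Fcrls, an Fc receptor-like scavenger gene at chr3:87250758-87263738, stood at 113 against 20.5 CPM and at 76.6 against 13.7 CPM, a log2 ratio of 2.40 in each library, and at 183 and 184 CPM inside the gate. Maf, a transcription factor of scavenging macrophages, stood at 469 against 218 CPM and at 834 against 453 CPM. The scavenger receptor Stab1 was called in the wild type alone, at 424 against 183 CPM there and at 335 against 263 CPM in the knockout (log2 ratios 1.20, 1.08 to 1.34, and 0.35, 0.12 to 0.58), and the leukotriene synthase Ltc4s likewise, at 210 against 103 CPM and at 161 against 187 CPM.

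After thinning, Mrc1 was detected in 39.0% of wild-type Pf4-high cells (33.7% to 44.5%), 19.9% of the bottom 50%, 46.5% of perivascular-gate cells and 2.86% of lymphoid cells (88.7%, 69.8%, 95.6% and 25.7% before thinning). The knockout gave 57.1% (50.4% to 63.7%), 31.8%, 67.1% and 0 of 36 cells, with a Clopper-Pearson upper bound of 9.74% (79.1%, 57.9%, 90.0% and 27.8% before thinning). For Maf in the knockout, 49.1% of Pf4-high cells, 34.4% of the bottom 50% and 36.1% of lymphoid cells (20.8% to 53.8%) had a UMI. How much of this lymphoid share was background was not tested. Mrc1 or Stab1 was detected in 62.5% of wild-type and 65.6% of knockout Pf4-high cells, against 33.7% and 44.9% of the bottom 50%. A chemokine of the CCR2 group together with Mrc1 or Stab1 was detected in 30.2% against 6.59% of wild-type cells and in 51.3% against 18.6% of knockout cells. Neither was detected in 18.9% against 53.3% and in 13.8% against 36.6%.

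Endocytic, lipid and iron genes were among the leading genes. Dab2, a clathrin adaptor, stood at 238 against 79.0 CPM in the wild type and at 466 against 185 CPM in the knockout. Cd36, a scavenger and fatty acid receptor, stood at 56.9 against 19.7 CPM and at 171 against 29.4 CPM (log2 ratios 1.49 and 2.50), and Abca1, the cholesterol exporter, at 89.3 against 30.5 CPM and at 193 against 65.4 CPM (1.52 and 1.55). The wider lipid list was closer to level. Of its 21 genes 8 were compared and Abca1 alone was higher in both libraries, and Apoe, the main lipid carrier of macrophages, was at 24290 against 20640 CPM and at 13960 against 13210 CPM. Cp, the ferroxidase ceruloplasmin, stood at 96.6 against 27.5 CPM and at 156 against 64.0 CPM. Of 10 resident scavenger genes 6 were compared, with a median log2 ratio of 0.75 in the wild type and -0.06 in the knockout. Timd4, the phosphatidylserine receptor that marks long-lived gut macrophages, stood at 47.4 against 29.6 CPM in the wild type and at 164 against 186 CPM in the knockout, and Cd4, a second marker of those cells, at 112 against 80.0 CPM and at 220 against 255 CPM. In the wild type the Timd4 ratio of 0.66 became -0.22 in cells of 2000 to 4000 UMIs, and it was -0.10 without cells holding Ccr2 or Plac8 UMIs. The Cd4 ratio of 0.48 became -1.01 and -0.505 in the same settings. Timd4 or Cd4 was detected after thinning in 15.2% of wild-type Pf4-high cells against 11.1% of the bottom 50%, and in 72 of 224 against 259 of 719 knockout cells. Cd36 alone among the 6 resident scavenger genes was higher in both libraries, and Timd4 and Cd4 were lower in the Pf4-high cells of the knockout without passing 1.5-fold.

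Growth, adhesion and signalling genes followed. Igf1, the insulin-like growth factor, stood at 55.3 against 14.7 CPM in the wild type and at 185 against 77.7 CPM in the knockout, and Igfbp4, a binding protein that holds it back, at 149 against 48.6 CPM and at 243 against 44.1 CPM. Vcam1, an adhesion ligand of leukocyte integrins, rested on 53 UMIs in wild-type Pf4-high cells and stood at 29.6 against 6.11 CPM, and at 169 against 57.3 CPM in the knockout. Ccnd1, a cyclin of the G1 phase, stood at 92.1 against 36.3 CPM and at 217 against 34.1 CPM. Of 17 cell cycle genes only Pcna passed the filter, at 65.3 against 57.0 CPM and at 63.8 against 81.5 CPM, so cell cycle genes as a list could not be read beside Ccnd1. Wwp1, a ubiquitin ligase, stood at 122 against 35.5 CPM and at 206 against 52.6 CPM, and Lifr, the receptor of leukaemia inhibitory factor, at 63.6 against 27.2 CPM and at 98.9 against 34.1 CPM. Il10, the main anti-inflammatory cytokine of gut macrophages, rested on 65 and 77 UMIs in the Pf4-high cells. It stood at 36.3 against 12.2 CPM in the wild type (log2 ratio 1.497, interval 1.1 to 2.04) and at 123 against 63.0 CPM in the knockout (0.95, 0.54 to 1.38), and in wild-type cells of 2000 to 4000 UMIs its ratio was -0.43.

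Further genes among the 48 were picked after their values were seen. Cltc, the clathrin heavy chain, stood at 326 against 162 CPM in the wild type and at 546 against 324 CPM in the knockout, and Trf, transferrin, at 461 against 302 CPM and at 643 against 366 CPM. Mef2c, a transcription factor, stood at 270 against 146 CPM and at 455 against 194 CPM. Gpr34, a lysophosphatidylserine receptor of macrophages and microglia, stood at 90.4 against 36.5 CPM and at 83.0 against 39.3 CPM. Tgfbr2, a receptor chain for TGF-beta, stood at 126 against 71.3 CPM and at 324 against 181 CPM, while the ligand gene Tgfb1 was lower. The endocytic genes Dab2 and Cltc were thus higher in both libraries, whereas lysosomal genes were near level.

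Complement genes were higher in part. Of 12 compared of 18, 4 were higher in each library, beside 4.37% and 6.86% of all compared genes in the wild type and the knockout. None of the 12 was lower in the wild type and 1 (Itgax) was in the knockout. Their median log2 ratio was 0.36 and 0.11. A gene can pass the expression filter through its Pf4-high level alone, so these counts are a description. C5ar1 and Cd93 were among the complement genes higher in both libraries. C5ar1, a receptor of the fragment C5a, stood at 322 against 189 CPM in the wild type and at 413 against 232 CPM in the knockout. Cd93, a surface glycoprotein gene of myeloid cells, stood at 233 against 135 CPM and at 223 against 138 CPM, so both genes passed 1.5-fold in both libraries. The C1q genes, which were used in the gate, were nearly level, with C1qa at 5759 against 5180 CPM and at 3368 against 3184 CPM. Among candidate receptors and partners of the PF4 protein, the heparan sulfate proteoglycans Sdc3 (118 against 58.2 CPM and 246 against 118 CPM) and Sdc4 (185 against 108 CPM and 447 against 291 CPM) were higher in both libraries, and Ccr1 was not, at 561 against 440 CPM and at 420 against 500 CPM. Of the 13 CXC chemokines listed beside Pf4, 4 passed the filter and 0 were higher in either library; Cxcl9 was lower in both, at 219 against 387 CPM and at 134 against 411 CPM.

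**Figure D4:**
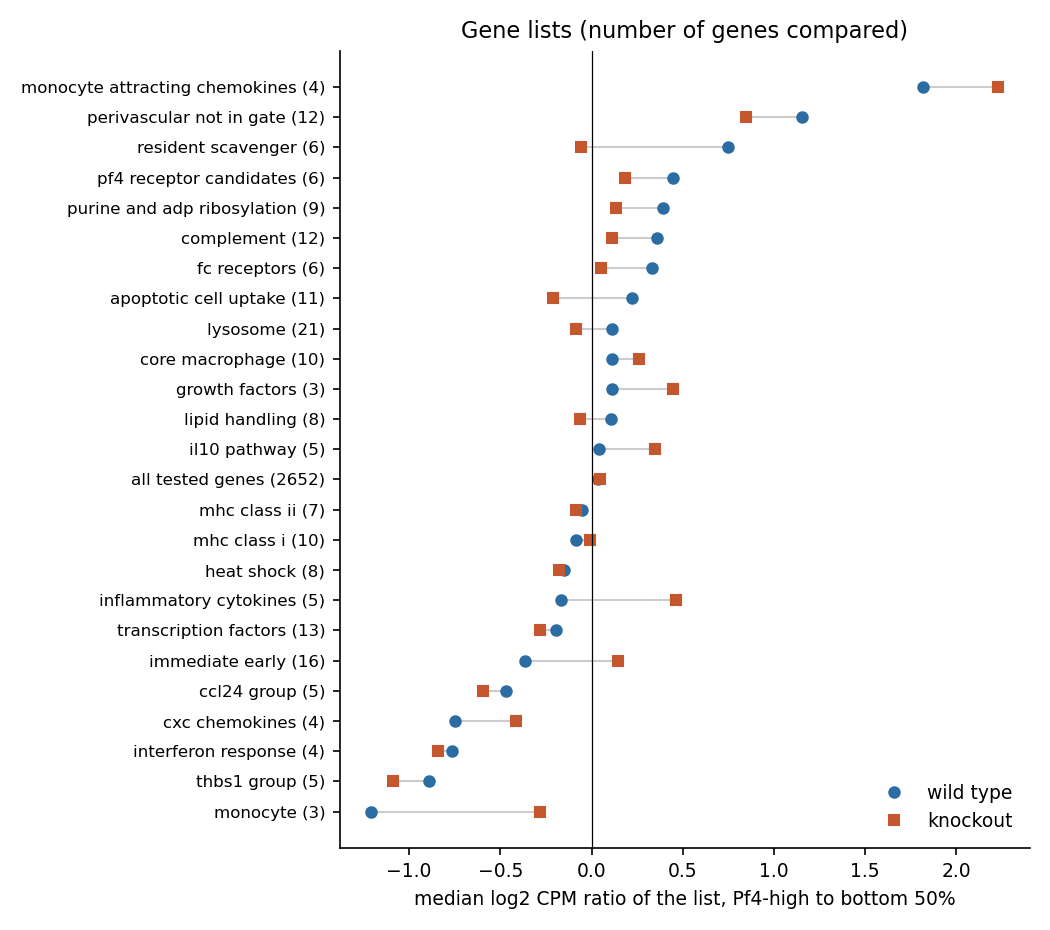
Median log2 CPM ratio of Pf4-high cells to the bottom 50% for each gene list with at least 3 compared genes, in the wild-type (circles) and knockout (squares) libraries, with the number of compared genes in brackets. The monocyte-attracting chemokines (1.81 and 2.23) and the perivascular genes outside the gate (1.15 and 0.85) stand highest, and the monocyte, Thbs1 and interferon lists lowest in the wild type.

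Among the genes that were lower, those of a Thbs1 group, a Ccl24 group and the interferon response were read as lists. These lists were drawn up with earlier results of the same libraries known. Thbs1, the matrix protein thrombospondin, stood at 62.5 CPM in wild-type Pf4-high cells (76.8 and 32.7 CPM in the lanes) against 134 CPM in the bottom 50%, and at 274 against 567 CPM in the knockout. Plaur, the urokinase receptor, stood at 18.98 against 58.0 CPM and at 144 against 306 CPM, log2 ratios of -1.56 and -1.09. Pgf, a growth factor of the VEGF family, stood at 26.8 against 50.6 CPM and at 94.1 against 216 CPM, and these 3 of the 5 genes of the group were lower in both libraries. In the Ccl24 group, Ccl24 stood at 55.3 against 126 CPM and at 140 against 213 CPM, and H2-M2, a non-classical class I gene, at 22.9 against 52.3 CPM and at 36.7 against 134 CPM. Ccl24 was sensitive to depth, with a log2 ratio of -1.18 in the wild type that became 0.00 in cells of 2000 to 4000 UMIs and of -0.60 in the knockout that became 0.37 after thinning. The wild-type H2-M2 ratio of -1.16 was -0.48 in cells with at least 4000 UMIs, short of 1.5-fold. After thinning H2-M2 was detected in 2.44% against 5.04% of wild-type and in 4.02% against 11.5% of knockout cells, and in 0 of the lymphoid cells.

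The other leading lower genes were Ocstamp, which acts in fusion of osteoclasts (36.8 against 83.0 CPM and 62.2 against 165 CPM), Havcr2, the receptor TIM-3 (29.6 against 60.8 CPM and 38.3 against 79.1 CPM), Smad7, an inhibitor of TGF-beta signalling (33.5 against 64.4 CPM and 28.7 against 95.7 CPM), Vps37b, Asph and Cd244. Tgfb1 itself was lower in both libraries, at 233 against 351 CPM and at 252 against 403 CPM. Of 4 interferon genes compared of 15, Isg15 was lower in both, at 178 against 313 CPM in the wild type and at 231 against 764 CPM in the knockout. Il1b, the inflammatory cytokine, stood at 634 CPM in wild-type Pf4-high cells, 955 CPM in the middle 35% and 1478 CPM in the bottom 50%, and at 1951, 2546 and 2872 CPM in the knockout. It was lower past 1.5-fold in the wild type (log2 ratio -1.22) and not in the knockout (-0.56). After thinning Il1b was detected in 38.4% of wild-type and 71.4% of knockout Pf4-high cells, in 62.1% and 87.9% of the bottom 50% and in 25.7% and 27.8% of lymphoid cells.

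Of the genes lower in both libraries, 4 more were picked after their values were seen. Ptgs2, the inducible cyclooxygenase, stood at 106 against 212 CPM in the wild type and at 558 against 972 CPM in the knockout. Il1rn, the interleukin-1 receptor antagonist, stood at 37.9 against 77.2 CPM and at 47.9 against 83.4 CPM, and Il1r2, the decoy receptor, at 46.3 against 89.8 CPM and at 100.5 against 262 CPM. Il1b itself passed 1.5-fold in the wild type alone. Wnt4, a secreted ligand, stood at 83.7 against 135 CPM and at 129 against 396 CPM.

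Of 17 genes of recent monocytes 3 were compared (Ccr2, Plac8 and Ms4a4c), and all 3 were lower in wild-type Pf4-high cells. Ccr2, the gene deleted in the knockout mice, stood at 169 CPM in wild-type Pf4-high cells (169 and 167 CPM in the lanes) against 391 CPM in the bottom 50%, a log2 ratio of -1.21 (-1.39 to -1.04). In cells of 2000 to 4000 UMIs this ratio was -0.26 and no longer passed 1.5-fold. In the knockout it had 3 UMIs (4.79 CPM) and 22 UMIs (10.4 CPM), with a ratio of -0.98 (-3.51 to 0.61), too few UMIs for a ratio. The library labelled knockout was thus near 0 for the deleted gene. Plac8 stood at 38.5 against 240 CPM in the wild type (-2.61, -3.01 to -2.30) and at 41.5 against 46.4 CPM in the knockout (-0.16, -0.85 to 0.47), and Ms4a4c at 46.9 against 97.8 CPM and at 25.5 against 31.3 CPM. After thinning, Ccr2 was detected in 12.8% of wild-type Pf4-high cells, 22.4% of the bottom 50%, 16.7% of perivascular-gate cells and 8.57% of lymphoid cells (32.0%, 48.8%, 39.6% and 28.6% before thinning). Without any cell holding a Ccr2 or Plac8 UMI, all 48 genes that were higher stayed above 0 in both libraries and 38 of them stayed past 1.5-fold in both. This setting left out few knockout cells, so it could change little there. Before thinning, Ccr2 was detected in 0.837% of knockout Pf4-high cells and 1.63% of the bottom 50%, and Plac8 in 8.37% and 6.78%. In the wild type the setting also selected on depth, since detection of Ccr2 fell on thinning.

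Antigen presentation and lysosomal genes were close to level between Pf4-high cells and the bottom 50%. Of 7 MHC class II genes compared, 1 was lower in the wild type and 0 in the knockout, and H2-Aa stood at 12100 against 11630 CPM and at 8865 against 8143 CPM. Of 21 lysosomal genes, 0 passed 1.5-fold in the wild type and 1 (Ctsd) in the knockout. Genes for uptake of dying cells were mixed. Of 11, 3 were higher in the wild type (Gas6, Stab1 and Timd4) and 1 in the knockout (Gas6), and Havcr2 was lower in both libraries. Of 13 transcription factors, 1 was higher and 2 were lower in the wild type, and 2 were higher and 4 lower in the knockout. Maf was higher and Bhlhe40 lower in both libraries (16.2 against 38.4 CPM and 59.0 against 158 CPM), and Spi1, the gene of PU.1, stood at 346 against 426 CPM and at 349 against 404 CPM.

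The knockout and wild-type Pf4-high cells were then compared with each other. Fewer cells of a kind and less RNA per cell cannot be told apart in such sums, and genotype, source of the mice, library and depth are the same split. A gene was counted when it differed at least 2-fold from the whole wild-type pool and from each lane. By this rule 194 genes (7.32%) were higher in knockout Pf4-high cells and 108 (4.07%) were lower. Over all compared genes the median was 0.13 in Pf4-high cells and 0.19 in the bottom 50%. The genes that stood highest were Hbb-bs (314 against 5.58 CPM), Tnfaip3 (440 against 26.8 CPM), Csrnp1 (180 against 13.9 CPM), Egr1 (2151 against 197 CPM), Vwa1 (179 against 18.4 CPM), Dusp1 (3224 against 363 CPM), Gm26532 (195 against 21.2 CPM) and Ccl4 (6300 against 754 CPM). Hbb-bs is a globin gene of red cells and was as high in the bottom 50% of the knockout (318 CPM) and at 741 CPM in its perivascular-gate cells. Beside Ccr2 (log2 ratio -4.87, -7.42 to -3.58), the lowest were Hspa1a (126 against 644 CPM), Nme1 (39.9 against 183 CPM), Psma6, Psmb3, Vim (102 against 355 CPM), Cox20 and Mrps18c.

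Immediate-early genes, which are transcribed within minutes of stimulation or of tissue digestion, were higher in the knockout throughout. All 16 compared of 18 were counted as such in Pf4-high cells. Their median log2 ratio there was 2.23, and in the bottom 50% it was 1.55. Fos stood at 6463 against 1429 CPM, Junb at 4823 against 810 CPM and Atf3 at 933 against 195 CPM. Within the wild type 6 of the 16 were lower in Pf4-high cells than in the bottom 50% (Fosb, Junb, Atf3, Klf4, Nr4a1 and Btg2), and 1 was higher (Ier3). The lanes differed, with 8 lower and 1 higher in lane 1 and 3 lower and 2 higher in lane 2. Within the knockout 0 were lower and 4 were higher (Egr1, Ier3, Klf2 and Klf6). Of 8 heat-shock genes 4 were counted as lower in the knockout Pf4-high cells. How far tissue handling differed between the preparations was not tested.

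The chemokines differed among themselves between the genotypes. In Pf4-high cells Ccl7 was 1.98 higher in the knockout on the log2 scale (1.85 to 2.11) and Ccl2 1.76 higher (1.60 to 1.93), against 2.45 and 1.44 in the bottom 50%. Ccl12 was 0.80 higher (0.64 to 0.95) in Pf4-high cells and stood at -0.08 in the bottom 50%. Ccl8 was lower, at -1.02 in Pf4-high cells and -0.53 in the bottom 50%, and 274 against 559 CPM is past 2-fold against the pool but not against each lane. The cluster of 4 neighbouring genes was thus not shifted as a block. Mrc1 (898 against 501 CPM), Gas6 (318 against 136 CPM), Igf1 (185 against 55.3 CPM) and Cd36 (171 against 56.9 CPM) were higher in the knockout Pf4-high cells, and Fcrls (76.6 against 113 CPM) and Pltp (83.0 against 164 CPM) were lower. Timd4 stood at 164 against 47.4 CPM in Pf4-high cells and at 186 against 29.6 CPM in the bottom 50%, so its genotype difference was not tied to Pf4.

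**Figure D5:**
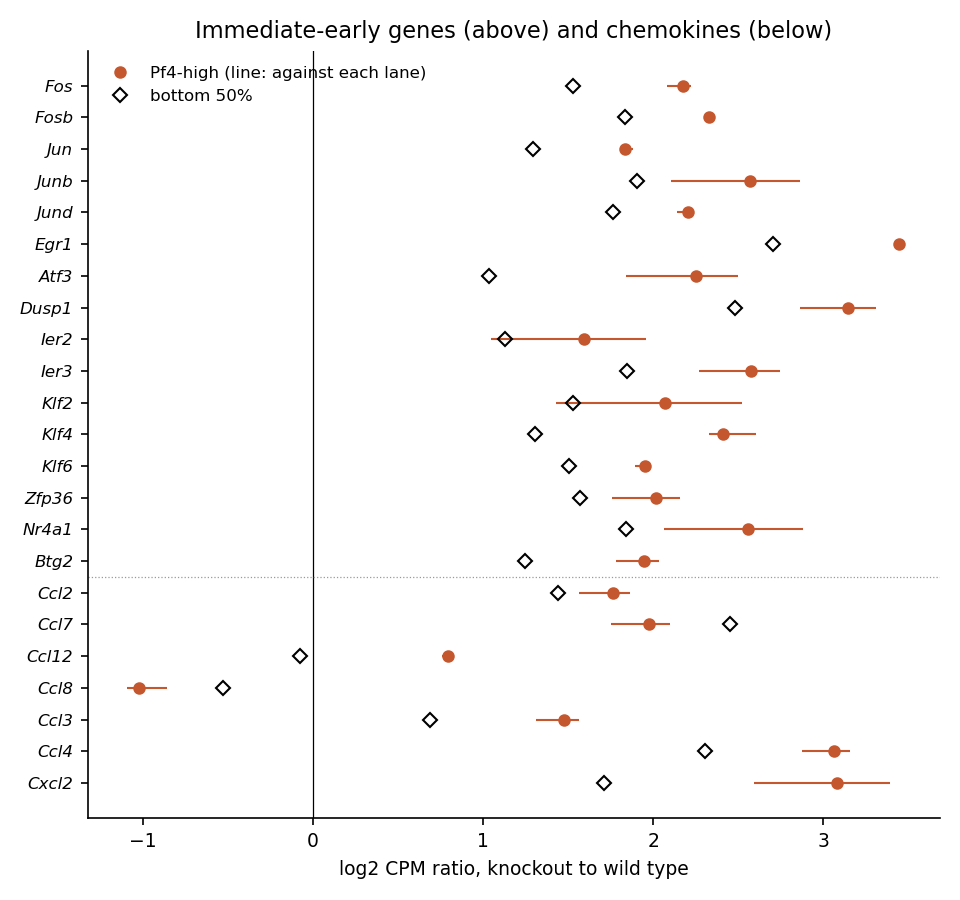
Log2 CPM ratio of knockout to wild type (horizontal axis) for 16 immediate-early genes and 7 chemokines. Filled circles are Pf4-high cells, with a line from the ratio against wild-type lane 1 to that against lane 2, and open diamonds are the bottom 50%; all 16 immediate-early genes lie right of 0 in both bands and Ccl8 lies left of 0.

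Some genes passed 1.5-fold in the knockout and not in the wild type. Ahnak, a large scaffold protein gene, stood at 76.6 against 14.2 CPM in the knockout and at 76.5 against 59.0 CPM in the wild type, and Emp3, a membrane protein gene, at 62.2 against 11.8 CPM and at 133 against 91.6 CPM. Vim, the intermediate filament vimentin, showed the same pattern, at 102 against 37.0 CPM in the knockout and 355 against 386 CPM in the wild type. For these 3 genes the Pf4-high level was nearer between the libraries than the bottom level. Without cells holding Ccr2 or Plac8 UMIs all 3 passed 1.5-fold in the wild type too, with log2 ratios of 1.79 for Ahnak, 1.86 for Emp3 and 1.54 for Vim, and in wild-type cells of 2000 to 4000 UMIs they were 0.77, 1.51 and 0.79. In the other direction, Clec1b was lower in Pf4-high cells of the knockout (71.8 against 158 CPM), and in the wild type it stood at 118 against 83.2 CPM, a log2 ratio of 0.50 that does not pass 1.5-fold. Hspa1b was likewise lower in the knockout (84.6 against 164 CPM) and stood at 258 against 186 CPM in the wild type, a log2 ratio of 0.48. In wild-type cells of 2000 to 4000 UMIs these ratios were -0.20 and -0.49. Alkbh1 (36.7 against 107 CPM) and Ggta1 (35.1 against 82.0 CPM) were lower in the knockout, and in the wild type they were at 58.6 against 63.3 CPM and at 63.6 against 59.1 CPM. The differences between the libraries in these ratios were not tested.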

How the data were processed

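UMI counts per gene and cell of 1 wild-type (lanes 1 and 2) and 1 knockout library were used as deposited by the authors, as raw whole-number counts. Per the submitters' processing notes they were made with Cell Ranger 3.0.1 on mm10; its gene models and cell calls are not given in the sources used here. Of 27998 genes, 98.7% were found by identifier in GENCODE M21. The Pf4-high cells and the gene lists were chosen with earlier results of these data known.

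Cells were filtered, gated and ranked as described (numpy 2.4.6, scipy 1.17.1, pandas 2.3.3), UMIs were summed per band and scaled to CPM. Log2 ratios used a pseudocount of 1 CPM and genes with a mean of at least 50 CPM over the 4 pools. The named genes were the 15 highest and 10 lowest ratios that held in the knockout and both lanes, the 8 highest and 8 lowest knockout to wild-type ratios, the 4 most different between libraries on each side, and the members of 41 lists; others were chosen after their values were seen. Intervals at the 95% level were exact Poisson for sums, conditional binomial for ratios and Clopper-Pearson for shares. With 1 library per genotype no test was possible. The ratio calls were tested on simulated data. Scrublet (scanpy 1.11.5) scored doublets in each lane. Its automatic threshold marked 6 cells per library, so the highest scores were taken at 0.8% per 1000 cells; doublets stayed in, apart from 1 alternative. Overlapping genes and near-identical copies, such as globin genes, may share reads, and strand handling is not given in the sources used here. Alternatives varied the pseudocount, expression minimum, scaling, rank cutoffs, depth, cell filters, cell weighting and lanes. Some genes of the lists are not reported here.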

Additional observations from a re-analysis of the deposited data

Results flagged for a closer look

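In 4 genes the ratio of Pf4-high cells to the bottom 50% passed 1.5-fold in opposite directions in the 2 libraries; the differences were not tested. Dusp2, a phosphatase of immediate-early signalling, had log2 ratios of -1.10 in the wild type and 0.76 in the knockout, a difference of 1.86, and the wild-type ratio was -0.33 in cells of 2000 to 4000 UMIs, where it no longer passed 1.5-fold. Socs3, the feedback inhibitor of STAT3 signalling, had -0.65 and 1.26, a difference of 1.91, and lane 2 alone gave -0.26. Crip1 had -1.14 and 0.65, a difference of 1.80, and Gpx3, a secreted glutathione peroxidase, had 0.70 and -0.66, a difference of -1.36.

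Cells below the C1q gate, which entered no comparison, still held Pf4 at 449 CPM in the wild type and 580 CPM in the knockout, above the lymphoid background of 205 and 292 CPM. The wild-type lanes differed, at 500.4 and 268 CPM, beside lymphoid levels of 249 and 108 CPM.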

How the results depend on the processing

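No paired analysis was possible because there was 1 library per genotype. Of the 48 genes higher in both libraries, 38 lower in both, 194 higher and 108 lower in the knockout, the counts moved past 1.5 times as follows. A minimum of 20 CPM gave 100, 79, 363 and 181, and no minimum 359, 217, 1004 and 399, since more genes were compared. In cells with 2000 to 4000 UMIs, 84 were higher and 139 lower in both. Genes lower in both numbered 25 with a pseudocount of 10 CPM, 62 with the top 10% and 23 with the top 25% as Pf4-high, 60 after thinning to 1000 UMIs, 58 with each cell weighing the same, 105 without cells holding Ccr2 or Plac8 UMIs, and 62 without ribosomal, mitochondrial and C1q genes in the totals; the causes were not tested. Lane 2 alone as the wild type gave 60 lower in both, and 360 higher and 183 lower in the knockout. Among ratios past 1.5-fold, those that changed sign were, in wild-type cells of 2000 to 4000 UMIs, Il10 (-0.43), Timd4 (-0.22) and the resident scavenger median (-0.19); after thinning, in the knockout, Pltp (-0.11) and Ccl24 (0.37); and without cells holding Ccr2 or Plac8 UMIs, in the wild type, Timd4 (-0.10) and the resident scavenger median (-0.15). Of 2372 values for single genes under alternatives, 1979 moved by less than their counting interval. Ranking cells in one part of their UMIs and measuring in the other gave 50 higher genes in both libraries, 37 of them among the 48. It gave 41 lower genes, 22 of them among the 38. Of the 38 lower genes, 24 stayed past 1.5-fold in both libraries after thinning and 21 with the top 25% as Pf4-high. Without cells holding Ccr2 or Plac8 UMIs, 34 of the 38 did. The alternative of cells with at least 4000 UMIs was chosen after seeing the data, and gave 56 and 33. Depth limits Il10, Vcam1, Ccr2 in the knockout and the lymphoid background of 35 and 36 cells.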
